A study of Rattus norvegicus with 60 samples.

Results

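The highest dose of deltamethrin was set directly against the highest dose of permethrin, with no vehicle value in the difference, over all 31042 probe sets. The other arrays of the series entered the fit only through the estimate of the spread. Deltamethrin at 3 mg/kg was represented by 8 rats, permethrin at 100 mg/kg by 8, and these 16 arrays are part of a series of 60 that also holds the lower doses and 12 rats given corn oil alone. All were adult male Long-Evans rats (postnatal days 62 to 64), dosed once by oral gavage in corn oil, and the frontal cortex was removed 6 h later. The RNA of each rat went to an Affymetrix rat genome-wide array of its own, with no pooling. Values are RMA values on the log2 scale, so a difference of 1 is a 2-fold difference, and each difference below is deltamethrin minus permethrin. The comparison addresses whether 2 pyrethroids of different structural type left different transcript levels in the cortex.

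Pyrethroids keep voltage-sensitive sodium channels open for longer than normal, and neurons exposed to them fire abnormally. Deltamethrin belongs to the type with an α-cyano group, which holds the channels open longest and gives salivation and writhing movements, whereas permethrin lacks that group and gives tremor. Repeated firing lets calcium into the neuron and switches on immediate early genes such as Fos, whose messages appear and vanish within hours, and an intoxicated animal also releases corticosterone, which acts through the glucocorticoid receptor on genes such as Fkbp5. The pair of doses was not matched: they differ in mg/kg, and in the study's behavioural assignment the permethrin dose stood at the larger effect level. Permethrin was given as a mixture of isomers and deltamethrin as a single isomer. Compound and dose cannot be told apart in these 16 rats.

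The arrays of the whole series fell into 2 sets on their first principal components, called set A (24 arrays) and set B (36 arrays) here. Set A holds replicates 1 to 3 of each dose and set B replicates 4 to 8, and the sizes are those of the cohorts that the methods describe, although the labels name no cohort. Within set A, 14 arrays lay far out on the first component, which carried 58% of the variance, and among them were 2 deltamethrin and 2 permethrin arrays. The mean position on that component was -2.57 in deltamethrin rats and 2.91 in permethrin rats, a gap with an exact permutation p of 0.747 (two-sided). Correlations between any pair of the 16 arrays ranged from 0.947 to 0.997. Because both groups are spread over both sets in the same numbers, differences within each set are given beside the pooled ones. The labels put 2 rats in a cage without saying which shared one. The p-values rest on the spread between rats within the groups of the whole series. No term for the array set was in that fit, so the spread also holds the difference between the sets. With the set as a block, 18428 probe sets differed between the sets (limma, adjusted p under 0.05). The sets were drawn from these same values, so that count is a description only.

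There were 11 lists of markers for the cell types of the cortex and of neighbouring tissue. None had a member past an unadjusted p of 0.05 by its brightest probe set. Over all probe sets of these genes 1 endothelial marker was higher, beside 0.222% of all probe sets. The summed level of 8 excitatory neuron markers, on the log2 scale, ranged from 14.00 to 14.66 in deltamethrin rats and from 14.20 to 14.55 in permethrin rats, and that of 9 astrocyte markers from 15.04 to 15.18 in deltamethrin rats and from 15.01 to 15.22 in permethrin rats. All 9 striatal markers had a higher mean after deltamethrin, with a median difference of 0.18, the largest in size of the list medians computed, while their summed level ranged from 13.54 to 13.98 in deltamethrin rats and from 13.29 to 14.04 in permethrin rats. Ttr, made by the choroid plexus, ranged from 7.74 to 12.93 after deltamethrin and from 7.42 to 11.35 after permethrin, with 2 deltamethrin rats above every permethrin rat. The part of these markers in the results below was not tested. In bulk tissue, fewer cells of a type and less RNA per cell cannot be told apart.

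Between the 2 compounds at these doses, no probe set passed an adjusted p of 0.05 (limma, 0 of 31042, 0%), and the lowest adjusted p was 1.00. At an unadjusted p under 0.05 there were 249 probe sets (0.802%), of which 69 were higher (0.222%) and 180 lower (0.58%) after deltamethrin. This is fewer than the 5% that such a threshold passes when equal groups of independent values are compared. No probe set had values that did not overlap between the 8 deltamethrin and the 8 permethrin rats (0 of 31042, 0%). Since no difference passed the adjusted threshold, the genes described below are those with the lowest unadjusted p or with a known role, and their values are given as measured. The gene lists were chosen with earlier results of these data known. The study had already listed Fkbp5, Gpd1, Mt2A, Cryab, Ddc, Klf4, Klf10 and Dusp6, among others, as dose-responsive on these same arrays. Shares of list members past a threshold are therefore descriptions and test nothing.

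The size of any undetected difference was limited by the intervals. The median standard error of a difference was 0.09, and the 95% confidence interval of the difference lay within 0.5 of 0 for 28175 probe sets (90.8%). Only Fos differed by more than 1 on the log2 scale, and 11 probe sets differed by more than 0.5. The median difference over all probe sets was -0.01. After the 16 arrays were quantile-normalized anew, 75 probe sets were higher and 107 lower, a more even split than the 69 and 180 from the deposited values.

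**Figure D1:**
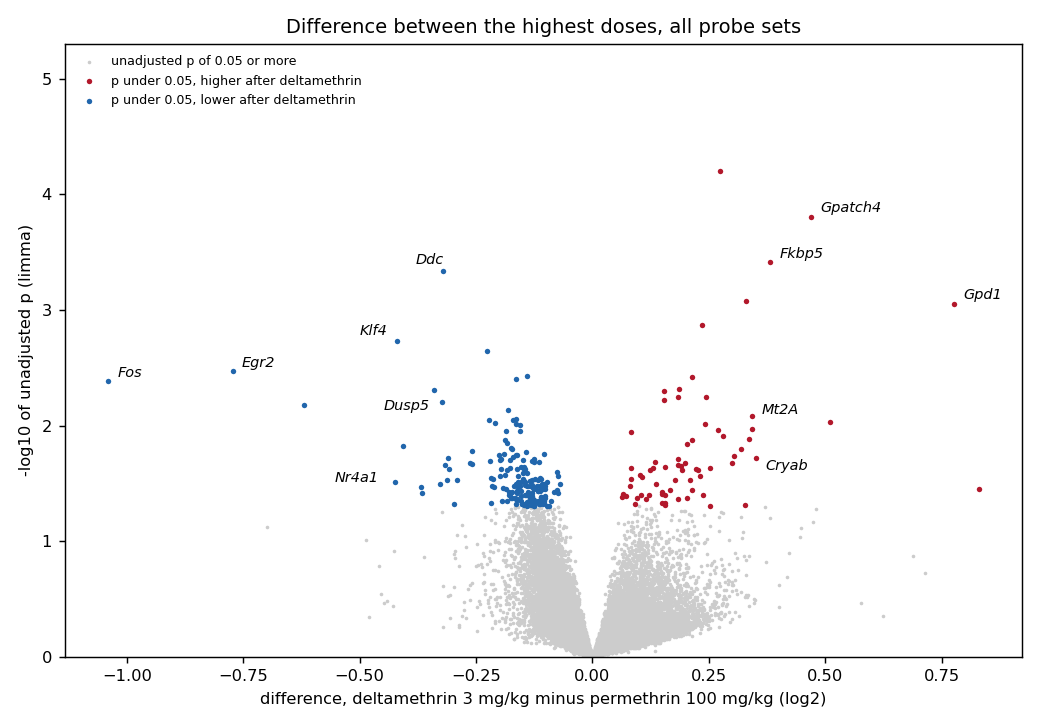
Difference between deltamethrin 3 mg/kg and permethrin 100 mg/kg on the log2 scale (horizontal axis) against the -log10 of the unadjusted limma p (vertical axis) for each of the 31042 probe sets. Red points (69) were higher and blue points (180) lower after deltamethrin at an unadjusted p under 0.05, and the named points with the widest differences are Fos at -1.04 and Gpd1 at 0.78.

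Genes that answer to glucocorticoids stood higher after deltamethrin in a few prominent cases. Fkbp5 encodes a co-chaperone that lowers the affinity of the glucocorticoid receptor for its hormone and is itself induced by that receptor. Its brighter probe set ranged from 8.58 to 9.30 with a median of 8.97 in deltamethrin rats, from 8.26 to 8.82 with a median of 8.60 in permethrin rats, and from 7.97 to 8.92 with a median of 8.47 in vehicle rats. All 8 deltamethrin rats lay above the permethrin mean and 5 lay above every permethrin rat, so the groups overlapped only in part. The difference was 0.38 (SE 0.10, 1.30-fold, unadjusted p = 0.000387), and it was 0.33 within set A and 0.41 within set B. The dimmer Fkbp5 probe set differed by 0.34 (SE 0.13, p = 0.0107), with 7 of the 8 deltamethrin rats above the permethrin mean.

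Gpd1, the cytosolic glycerol-3-phosphate dehydrogenase that links glycolysis to glycerolipid synthesis, had the widest positive difference of any named gene at p under 0.05. Its brighter probe set ranged from 9.21 to 10.62 with a median of 9.92 in deltamethrin rats, from 8.41 to 10.00 with a median of 9.02 in permethrin rats, and from 8.37 to 9.95 with a median of 8.85 in vehicle rats. Every deltamethrin rat exceeded the permethrin mean, 5 permethrin rats lay below all deltamethrin rats, and the other permethrin rats lay among them. The difference was 0.78 (SE 0.22, 1.71-fold, p = 0.000882), with 0.49 in set A and 0.95 in set B. Among the far arrays of both doses, 2 deltamethrin against 2 permethrin and all in set A, it was 0.03 (p = 0.852). The dimmer probe set gave 0.51 (SE 0.19, p = 0.0093), and 0.47 and 0.53 in sets A and B.

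The metallothionein Mt2A, which binds zinc and copper and is induced by both metals and glucocorticoids, ranged from 10.55 to 11.64 with a median of 11.10 in deltamethrin rats, from 10.64 to 11.04 with a median of 10.74 in permethrin rats, and from 10.46 to 11.44 with a median of 10.61 in vehicle rats. The permethrin rats lay close together and 4 deltamethrin rats were above all of them, while 1 deltamethrin rat was below all of them. The difference was 0.34 (SE 0.12, 1.27-fold, p = 0.00828). It was 0.24 within set A and 0.40 within set B.

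Fkbp5, Gpd1 and Mt2A were the 3 of 29 measured glucocorticoid-responsive genes that were higher at an unadjusted p under 0.05, and 0 were lower, beside 0.141% higher and 0.485% lower among the 14217 named genes. All 3 were already listed by the study for deltamethrin on these arrays, so the share is a description only. The list as a whole did not move with them: its median difference was 0.02, against -0.01 over all named genes, and 18 members had a higher and 11 a lower mean. Tsc22d3, which encodes the glucocorticoid-induced leucine zipper, differed by 0.02 (95% confidence interval -0.18 to 0.22), and it stood 0.19 above vehicle after deltamethrin and 0.17 above it after permethrin. Sgk1, a kinase that controls ion transport, differed by -0.09 (-0.37 to 0.19), and the phosphatase gene Dusp1 by -0.30 (-0.67 to 0.08). Sult1a1, a sulfotransferase, differed by 0.27 (-0.01 to 0.56). The glucocorticoid receptor Nr3c1 itself differed by 0.03, with a wide interval of -0.48 to 0.55, and none of the 11 corticosteroid receptor and chaperone genes was past p = 0.05.

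Among all named genes 0.141% were higher at an unadjusted p under 0.05. Of 20 genes of glycerol phosphate and lactate metabolism, only Gpd1 was past that threshold by its brightest probe set. Its mitochondrial partner Gpd2, which completes the glycerol phosphate shuttle, differed by 0.20 (-0.03 to 0.42, p = 0.0842). The lactate dehydrogenase subunits Ldha and Ldhb differed by 0.02 each, and the monocarboxylate transporter Slc16a1 by 0.03 (-0.15 to 0.21). The list median was 0.03, and the lowest difference of a member was -0.16. By mean, 16 members were higher and 4 lower after deltamethrin, while 55.5% of all probe sets were lower. That share is over all probe sets, and with the dimmer ones left out the median difference was 0.01. Potassium channel genes (29 higher, 11 lower) and calcium/calmodulin-dependent kinase genes (12 higher, 1 lower) leaned the same way. Immediate early genes leaned the other way (2 higher, 24 lower).

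**Figure D2:**
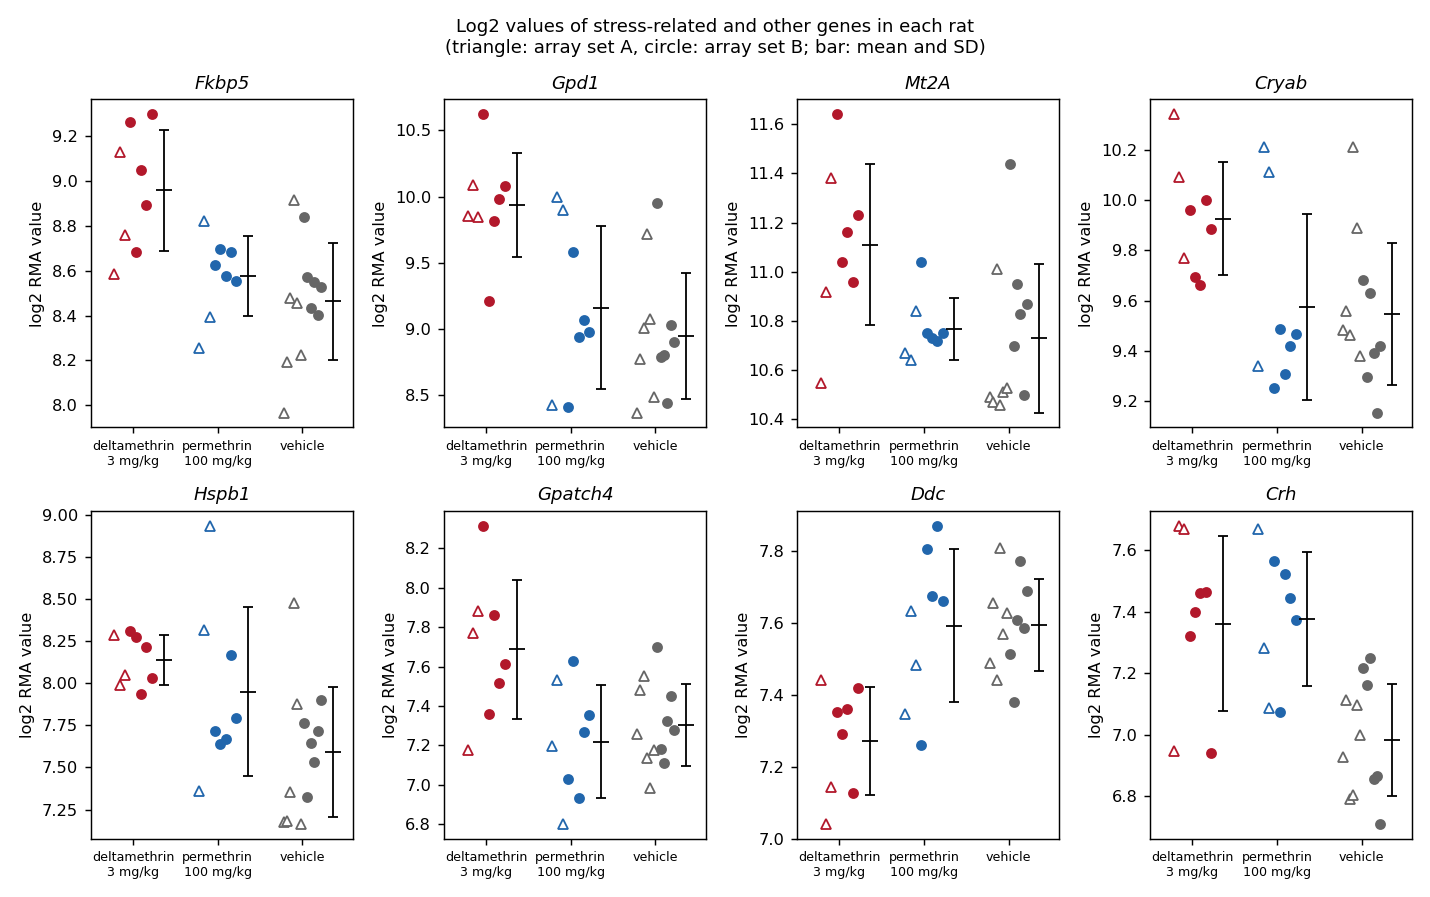
Log2 RMA value (vertical axes) of 8 genes in each rat after deltamethrin 3 mg/kg (red, 8 rats), permethrin 100 mg/kg (blue, 8 rats) and vehicle (grey, 12 rats), with open triangles for array set A, filled circles for set B, and bars for the mean and SD. Fkbp5, Gpd1, Mt2A, Cryab and Gpatch4 lie higher and Ddc lower in deltamethrin rats, with overlap in each, while Crh lies at a like level after both compounds.

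The small heat shock proteins differed between themselves. Cryab encodes αB-crystallin, a chaperone abundant in glia that keeps damaged proteins soluble. It ranged from 9.66 to 10.34 with a median of 9.92 in deltamethrin rats, from 9.25 to 10.21 with a median of 9.44 in permethrin rats, and from 9.16 to 10.21 with a median of 9.47 in vehicle rats. All 8 deltamethrin rats were above the permethrin mean, 6 permethrin rats were below every deltamethrin rat, and the remaining permethrin rats, replicates 2 and 3, lay with the highest deltamethrin rats. Both of these arrays are among those far out on the first component.

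The Cryab difference was 0.35 (SE 0.15, 1.28-fold, p = 0.0191), with 0.18 in set A and 0.45 in set B. It was the single probe set that passed an adjusted p of 0.05 in any alternative fit. With the array set and the first component both in the model, the difference was 0.39 (limma, adjusted p = 0.0403), and without the 14 far arrays it was 0.45 (adjusted p = 0.0237). Within the far arrays, 2 deltamethrin against 2 permethrin, it was 0.06 (adjusted p = 0.923). Over all 33 alternatives its adjusted p ranged from 0.0237 to 1, and those 2 fits were added after the data had been seen. Without deltamethrin replicate 1 the unadjusted p was 0.0546.

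Hspb1, the small heat shock protein known as Hsp27, ranged from 7.94 to 8.31 with a median of 8.13 in deltamethrin rats, from 7.36 to 8.93 with a median of 7.75 in permethrin rats, and from 7.17 to 8.47 with a median of 7.59 in vehicle rats. The deltamethrin rats were tightly grouped inside the wide range of the permethrin rats. The difference was 0.19 (-0.14 to 0.52, p = 0.256), and it had opposite signs in the array sets, -0.10 in set A and 0.36 in set B. Mean levels stood 0.54 above vehicle after deltamethrin and 0.36 above it after permethrin.

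Of 17 heat shock proteins and chaperones Cryab alone was past an unadjusted p of 0.05, beside 0.141% of all named genes that were higher. The list median was 0.03. Hspa1a, the inducible Hsp70, differed by 0.04 (-0.19 to 0.26). Among 21 endoplasmic reticulum stress genes none was past that threshold, and their median was 0.00. The widest of these was the chaperone Hyou1 at 0.42, with an interval of -0.24 to 1.07. Its difference was 1.21 in set A and -0.06 in set B, where values were less scattered.

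The genes that neurons switch on when they fire were, by contrast, higher after permethrin than after deltamethrin in the cases with the lowest p. Serum response factor acts on such genes through a motif known as the CArG box, and the factor CREB through the cAMP response element, of which TGACG is only a part. Promoter sequences from RefSeq (assembly GRCr8) were found for 7 of 9 activity-regulated genes looked up; Fos and Klf10 were not in the table used. In the 150 bases before the start site, read on both strands, 3 of these 7 (Egr2, Dusp5 and Egr1) held a CArG box and 4 (the same genes and Nr4a1) held TGACG, against 0.878% and 13.4% of all 33469 promoters in the table. The motifs do not overlap in the sequences printed here, and the pair of CArG boxes of Dusp5 adjoin. The 3 promoters below are shown because they belong to genes past an unadjusted p of 0.05 and hold such motifs, with CArG boxes and TGACG (or its complement) in capitals.
Egr2 (chr20:21054442-21054591, minus strand): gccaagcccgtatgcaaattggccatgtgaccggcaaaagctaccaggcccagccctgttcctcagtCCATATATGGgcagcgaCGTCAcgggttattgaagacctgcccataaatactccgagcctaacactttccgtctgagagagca
Dusp5 (chr1:262543624-262543773, plus strand): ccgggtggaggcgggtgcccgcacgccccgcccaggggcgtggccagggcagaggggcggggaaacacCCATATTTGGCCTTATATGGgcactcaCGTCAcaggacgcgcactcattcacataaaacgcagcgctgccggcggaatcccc
Nr4a1 (chr7:134259988-134260137, plus strand): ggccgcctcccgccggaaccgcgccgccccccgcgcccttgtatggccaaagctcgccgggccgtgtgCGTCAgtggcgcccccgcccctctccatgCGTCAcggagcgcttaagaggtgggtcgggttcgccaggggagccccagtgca
Klf4, Ier5 and Dusp6, which also lay lower after deltamethrin, held neither motif in this window. A match describes the sequence only.

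Fos encodes a subunit of the AP-1 transcription factor and is the usual marker of recently active neurons. By the dimmer of its 2 probe sets it ranged from 6.12 to 7.18 with a median of 6.80 in deltamethrin rats, from 6.89 to 9.24 with a median of 7.88 in permethrin rats, and from 5.72 to 8.50 with a median of 7.07 in vehicle rats. Every deltamethrin rat was below the permethrin mean and 6 permethrin rats were above every deltamethrin rat. The vehicle rats spanned most of the range of both groups. The difference was -1.04 (SE 0.35, 0.486-fold, p = 0.00414), with -0.91 in set A and -1.12 in set B. Deltamethrin rats averaged 0.38 below vehicle and permethrin rats 0.66 above it, on the log2 scale. The brighter Fos probe set disagreed in size, at -0.10 (-0.29 to 0.08, p = 0.25).

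Egr2 encodes a zinc finger transcription factor of the early growth response family. It ranged from 5.41 to 6.10 with a median of 5.83 in deltamethrin rats, from 5.57 to 8.11 with a median of 6.34 in permethrin rats, and from 5.36 to 7.17 with a median of 5.77 in vehicle rats. The deltamethrin rats stayed low, 5 permethrin rats were above all of them, and permethrin replicate 7 was the highest. The difference was -0.77 (SE 0.25, 0.585-fold, p = 0.0034), with -0.56 in set A and -0.90 in set B, and it was -0.55 without that rat. Its relative Egr1 differed by -0.27 (-0.59 to 0.04, p = 0.0899), with medians of 11.31 in deltamethrin rats, 11.68 in permethrin rats and 11.28 in vehicle rats.

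Klf4, a zinc finger factor that also curbs growth, ranged from 6.75 to 7.50 with a median of 7.02 in deltamethrin rats, from 7.03 to 8.09 with a median of 7.44 in permethrin rats, and from 7.01 to 8.17 with a median of 7.42 in vehicle rats. Here the deltamethrin rats were also below most vehicle rats: 1 of 8 exceeded the vehicle mean, against 4 of 8 permethrin rats. The difference was -0.42 (SE 0.13, p = 0.00187), with -0.51 in set A and -0.37 in set B.

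Nr4a1, an orphan nuclear receptor, and Klf10, a growth factor-induced repressor, were named after their values had been seen, because the count of lower members includes them. Nr4a1 ranged from 8.74 to 9.50 with a median of 8.99 in deltamethrin rats, from 8.97 to 10.24 with a median of 9.35 in permethrin rats, and from 8.85 to 10.82 with a median of 9.32 in vehicle rats. Its deltamethrin values overlapped the permethrin values from below. The difference was -0.42 (SE 0.19, p = 0.031), with -0.47 in set A and -0.40 in set B, and without permethrin replicate 3 it was -0.31 (p = 0.108). Klf10 differed by -0.22 (SE 0.11, p = 0.0463), with means of 8.64 after deltamethrin, 8.86 after permethrin and 8.90 in vehicle rats. Its p was under 0.05 in 15 of its 33 alternatives, and the difference was -0.18 (p = 0.112) without permethrin replicate 3. Ier5, an immediate early response gene, had medians of 10.08 in deltamethrin rats, 10.31 in permethrin rats and 10.17 in vehicle rats, and differed by -0.32 (SE 0.13, p = 0.0219). Without permethrin replicate 2 its difference was -0.24 (p = 0.084).

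Of 26 measured immediate early genes, each by its brightest probe set, 5 were lower after deltamethrin at an unadjusted p under 0.05 (Egr2, Klf4, Ier5, Nr4a1 and Klf10) and 0 were higher. Among all 14217 named genes these shares were 0.485% and 0.141%. Klf4 and Klf10 were already listed by the study for deltamethrin on these arrays, so the share of the list is a description only. The median difference of the list was -0.10, against -0.01 over all named genes, and 24 of the 26 had a lower mean after deltamethrin, as did 55.5% of all probe sets. Jun (0.15) and Klf6 (0.31, interval -0.15 to 0.77) had a higher one. Arc, whose protein gathers at active synapses, differed by -0.49 (-1.07 to 0.09, p = 0.0987). Its mean was 8.83 after deltamethrin, 9.32 after permethrin and 9.37 in vehicle rats. Junb differed by -0.25 (-0.59 to 0.10). Egr3 was level, at -0.01. Of the list members past p = 0.05, the permethrin mean stood above vehicle for Egr2 (6.54 against 6.00) and Ier5 (10.38 against 10.21). It was close to vehicle for Klf4 (7.50 against 7.45), Nr4a1 (9.46 against 9.49) and Klf10 (8.86 against 8.90). The deltamethrin mean was below vehicle for all of these genes.

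Genes that feed back on the same signal included a pair of phosphatases of the kinase ERK. Dusp5, its nuclear phosphatase, ranged from 6.50 to 6.76 with a median of 6.57 in deltamethrin rats, from 6.42 to 7.28 with a median of 7.03 in permethrin rats, and from 6.27 to 7.27 with a median of 6.79 in vehicle rats. The deltamethrin rats lay within a narrow band, 6 permethrin rats lay above that band, and 1 lay below it. The difference was -0.32 (SE 0.11, 0.799-fold, p = 0.00627), with -0.33 in set A and -0.32 in set B.

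Dusp6, the cytoplasmic phosphatase, ranged from 9.23 to 9.72 with a median of 9.56 in deltamethrin rats, from 9.51 to 10.13 with a median of 9.78 in permethrin rats, and from 9.28 to 10.02 with a median of 9.66 in vehicle rats. It differed by -0.26 (SE 0.10, p = 0.0166), and by -0.21 (p = 0.0566) without permethrin replicate 7. A further family member, Dusp7, went the other way: its medians were 9.38 in deltamethrin rats, 9.15 in permethrin rats and 9.17 in vehicle rats, the difference was 0.19 (SE 0.06, p = 0.0048), and 6 deltamethrin rats exceeded every permethrin rat.

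Dusp5 and Dusp6 were the 2 of 29 activity-regulated effector and feedback genes that were lower at p under 0.05, with 0 higher, beside 0.485% lower and 0.141% higher among all named genes, and the list median was -0.03. Dusp7, which was higher after deltamethrin, is not a member of this list, so the count of 0 higher leaves it out. Bdnf, the neurotrophin that supports synapses, differed by -0.23 (-0.54 to 0.09) and by -0.08 (-0.17 to 0.02) in its 2 probe sets. The neuropeptide genes Npy (-0.05), Sst (-0.05) and Vgf (0.03) differed little.

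**Figure D3:**
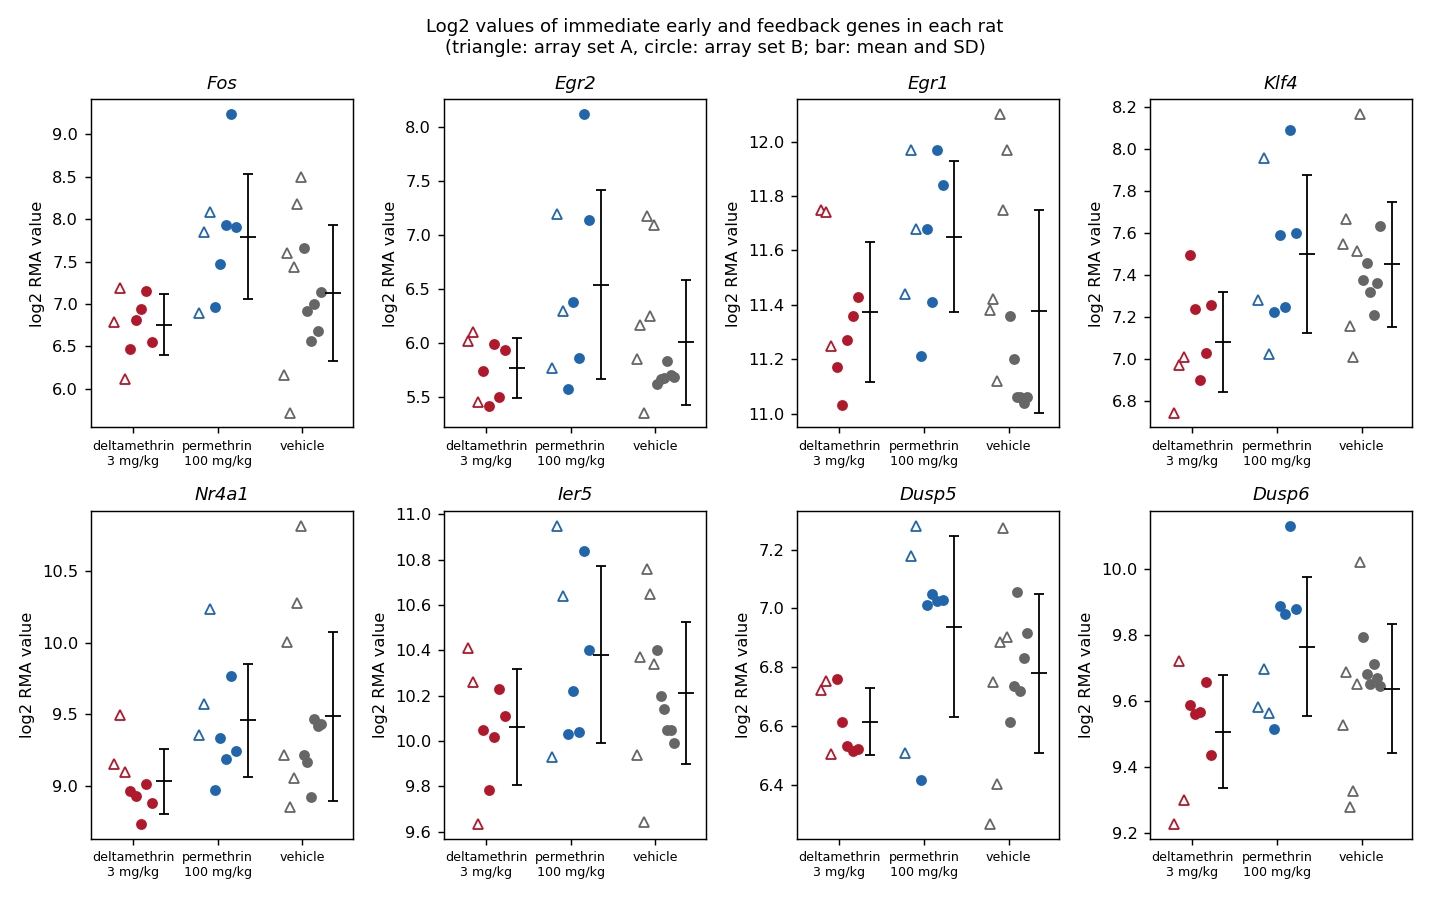
Log2 RMA value (vertical axes) of 8 immediate early and feedback genes in each rat after deltamethrin 3 mg/kg (red, 8 rats), permethrin 100 mg/kg (blue, 8 rats) and vehicle (grey, 12 rats), with open triangles for array set A, filled circles for set B, and bars for the mean and SD. Permethrin rats reach the highest values among treated rats in each panel, and for Fos 6 of them lie above every deltamethrin rat.

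The highest values among the 16 treated rats came mostly from a subset of the permethrin rats. Vehicle rats are not ranked here, and for Nr4a1 and Klf4 the highest vehicle rat stood above every permethrin rat. Over Fos, Egr2, Klf4, Ier5, Nr4a1, Klf10, Dusp5 and Dusp6, the 4 highest of the 16 rats make 32 places, of which deltamethrin rats took 4 and permethrin rats 28. Permethrin replicate 7 was among the 4 highest for 7 of these 8 genes, and replicates 2, 3 and 8 for 5 each. Replicates 5 and 6 were so for 3 each, and replicates 1 and 4 for 0. Permethrin replicates 2 and 3 are arrays far out on the first component. So are deltamethrin replicates 1 and 2, which took 1 and 2 of the deltamethrin places. Since the genes were chosen for their lower level after deltamethrin, these counts describe which rats carried the difference and test nothing.

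Ddc, dopa decarboxylase, makes dopamine and serotonin from their precursors. Its brighter probe set ranged from 7.04 to 7.44 with a median of 7.32 in deltamethrin rats, from 7.26 to 7.87 with a median of 7.65 in permethrin rats, and from 7.38 to 7.81 with a median of 7.59 in vehicle rats. Every deltamethrin rat was below both the permethrin and the vehicle mean, and 6 permethrin rats were above every deltamethrin rat. The difference was -0.32 (SE 0.09, 0.801-fold, p = 0.00046), with -0.28 in set A and -0.34 in set B. The dimmer Ddc probe set differed by -0.15 (-0.38 to 0.07), with 0.01 in set A and -0.25 in set B. The study also measured Ddc by PCR in a separate cohort of rats, and there it was lower than control after both of these doses.

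Of 14 genes of monoamine synthesis and handling, Ddc was the only member past p = 0.05 (0.485% of all named genes were lower at that threshold). A lower mean after deltamethrin was found for 12 of the 14, beside 55.5% of all probe sets, and the list median was -0.08. The vesicular monoamine transporter Slc18a2 differed by -0.12 (-0.25 to 0.00, p = 0.0541). Tyrosine hydroxylase, Th, differed by -0.10 (-0.35 to 0.16). The cell bodies of monoamine neurons lie in the brainstem and not in the cortex.

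Outside these groups the lowest p of a named gene belonged to Gpatch4, which encodes a G-patch domain protein of the nucleolus. The probe set of lowest p ranged from 7.18 to 8.32 with a median of 7.69 in deltamethrin rats, from 6.80 to 7.63 with a median of 7.23 in permethrin rats, and from 6.99 to 7.70 with a median of 7.27 in vehicle rats. The ranges overlapped, and 4 deltamethrin rats were above every permethrin rat. The difference was 0.47 (SE 0.12, 1.38-fold, p = 0.000157), with 0.43 in set A and 0.49 in set B. The other 3 Gpatch4 probe sets differed by 0.24 (p = 0.00977), 0.30 (p = 0.0185) and 0.18 (p = 0.0297), and the first of these was 0.14 (p = 0.0769) without deltamethrin replicate 4.

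Further genes were higher after deltamethrin by small amounts. Wasf3, a regulator of actin branching, differed by 0.15 (SE 0.05, p = 0.00499), with medians of 6.48 in deltamethrin rats, 6.35 in permethrin rats and 6.47 in vehicle rats. Inip, a subunit of a complex that binds single-stranded DNA, differed by 0.18 (SE 0.06, p = 0.00564). For both genes the deltamethrin median was close to or above vehicle and the permethrin median below it.

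Among genes lower after deltamethrin was Frzb, which encodes a secreted inhibitor of Wnt signalling. It had medians of 7.84 in deltamethrin rats, 8.04 in permethrin rats and 7.97 in vehicle rats, and differed by -0.22 (SE 0.08, p = 0.00898), with 5 deltamethrin rats below every permethrin rat. Mks1, needed for primary cilia, differed by -0.17 (SE 0.06, p = 0.00896). Ptgs1, cyclooxygenase 1, differed by -0.16 (SE 0.06, p = 0.00886), mostly from set A (-0.34, against -0.06 in set B). Ptgs2os, named for its place opposite the cyclooxygenase 2 gene, differed by -0.21 (SE 0.08, p = 0.0096), while Ptgs2 itself differed by -0.06 (-0.53 to 0.42).

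Messages of the ion channels that pyrethroids act on did not separate the 2 doses. None of 12 sodium channel genes and none of 22 calcium channel genes was past an unadjusted p of 0.05, with medians of 0.04 and 0.07. The interval lay within 0.5 of 0 for 9 and 17 of them. The main sodium channels of the adult forebrain had the widest intervals: Scn2a differed by 0.16 (-0.44 to 0.76) and Scn1a by 0.13 (-0.47 to 0.72), whereas Scn8a differed by 0.09 (-0.16 to 0.34). Scn2a ranged from 10.09 to 10.92 in deltamethrin rats, from 8.80 to 11.02 in permethrin rats and from 9.29 to 11.19 in vehicle rats. The deltamethrin range lay inside the permethrin range.

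The calcium channel list had its lowest p in Cacng8, an auxiliary subunit that also travels with AMPA receptors. It ranged from 7.38 to 8.27 with a median of 7.86 in deltamethrin rats, from 6.87 to 8.02 with a median of 7.64 in permethrin rats, and from 7.36 to 8.39 with a median of 7.88 in vehicle rats. The difference was 0.32 (-0.02 to 0.65, p = 0.0613). The pore-forming subunits Cacna1a, Cacna1b and Cacna1c differed by -0.04, 0.09 and 0.08.

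**Figure D4:**
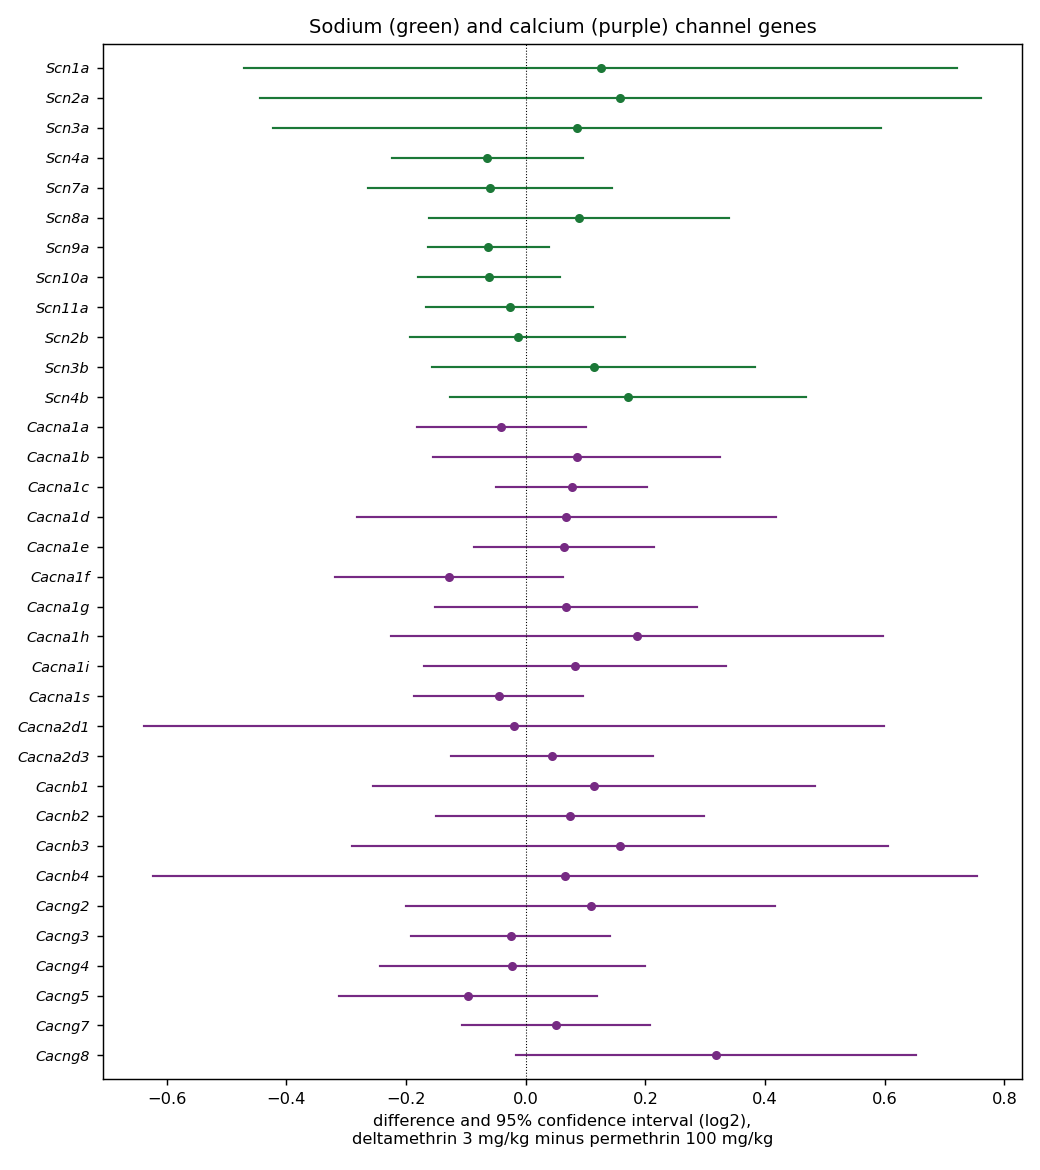
Difference between deltamethrin 3 mg/kg and permethrin 100 mg/kg (points) with its 95% confidence interval (lines) on the log2 scale, horizontal axis, for 12 sodium channel genes (green) and 22 calcium channel genes (purple), each by its brightest probe set. Every interval includes 0, and the widest, such as Scn2a (-0.44 to 0.76) and Cacnb4 (-0.62 to 0.75), would hold differences of over 0.5.

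None of 40 potassium channel genes, 18 chloride channel and cotransporter genes, 15 sodium pump and calcium clearance genes or 17 GABA receptor and synthesis genes was past p = 0.05 by its brightest probe set, and the list medians were 0.05, -0.03, 0.05 and 0.03. The interval lay within 0.5 of 0 for 34, 15, 12 and 11 of them, and the widest of a GABA gene reached 1.06. Over all probe sets of the GABA genes 1 was lower at p under 0.05, beside 0.58% of all probe sets. Of 21 glutamate receptor subunits, 13 with an interval within 0.5 of 0, 1 was lower at p under 0.05, the kainate receptor subunit Grik1 at -0.18 (SE 0.08, p = 0.0233), with medians of 6.27 in deltamethrin rats, 6.41 in permethrin rats and 6.37 in vehicle rats. Among all named genes 0.485% were lower at that threshold. Grin2b, an NMDA receptor subunit, differed by 0.28 with an interval of -0.31 to 0.87.

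For some genes the 2 groups had like levels, with both means above that of vehicle. Crh, corticotropin-releasing hormone, ranged from 6.94 to 7.68 with a median of 7.43 in deltamethrin rats, from 7.07 to 7.67 with a median of 7.41 in permethrin rats, and from 6.71 to 7.25 with a median of 6.96 in vehicle rats. The treated groups covered nearly the same range, and both means stood above vehicle, by 0.38 after deltamethrin and 0.39 after permethrin. The difference between them was -0.02, with an interval of -0.23 to 0.20.

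Camk1g, a calcium/calmodulin-dependent kinase of neurons, ranged from 9.30 to 9.73 with a median of 9.65 in deltamethrin rats, from 9.11 to 9.87 with a median of 9.53 in permethrin rats, and from 8.86 to 9.42 with a median of 9.19 in vehicle rats. The difference was 0.08 (-0.14 to 0.29) in this probe set and -0.09 (-0.44 to 0.27) in the other. Rassf5, a Ras effector, differed by -0.09 (-0.27 to 0.09), with medians of 9.42 in deltamethrin rats, 9.41 in permethrin rats and 9.12 in vehicle rats. These intervals leave room for differences of the size seen in Fkbp5 only at the outer end of the second Camk1g probe set, and they do not show that the compounds act alike.

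**Figure D5:**
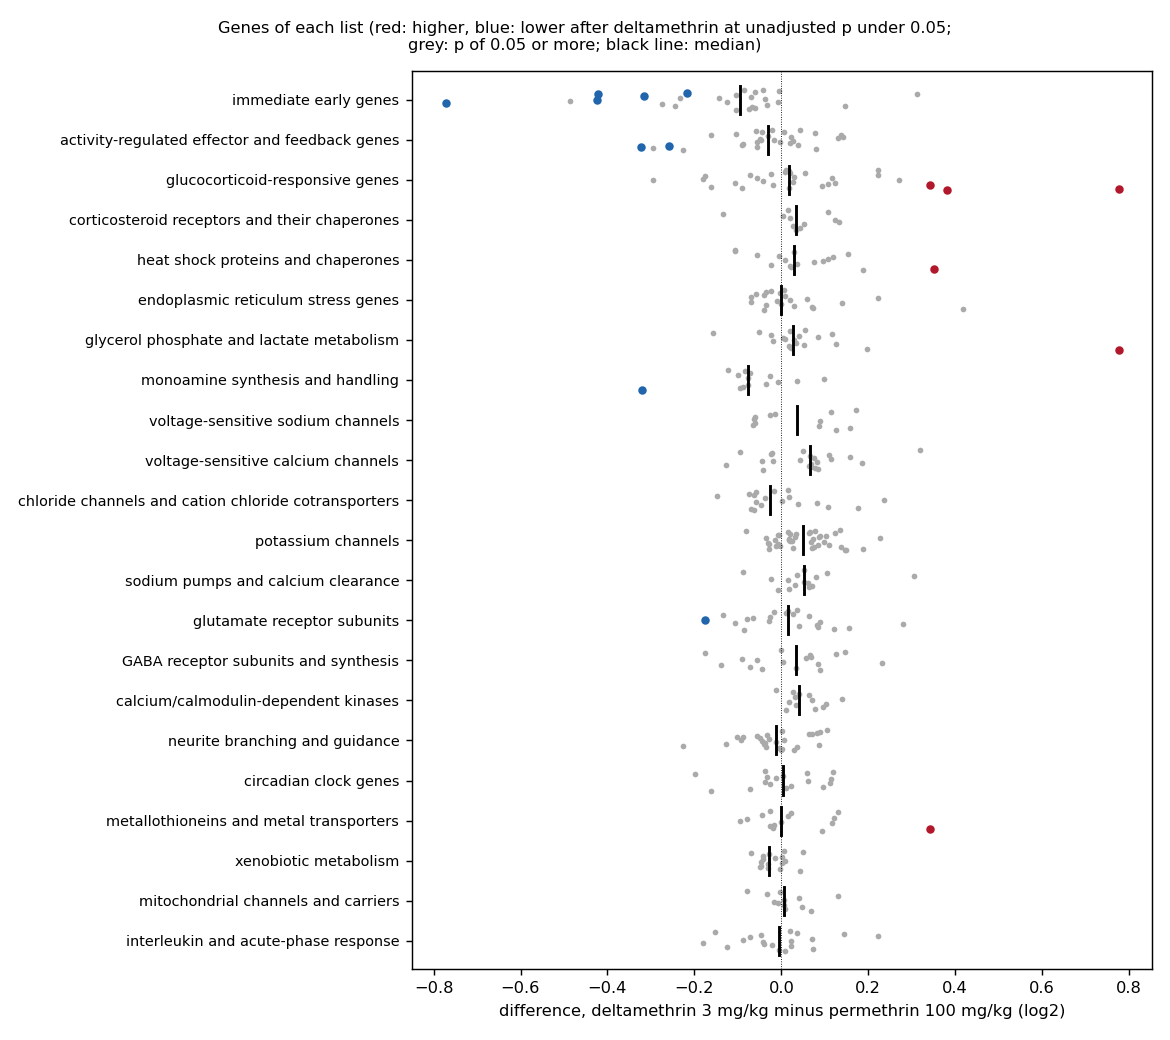
Difference between deltamethrin 3 mg/kg and permethrin 100 mg/kg on the log2 scale (horizontal axis) for each measured gene of 22 lists, by its brightest probe set, with red and blue points for an unadjusted p under 0.05 (higher and lower after deltamethrin), grey points for the rest and a black line for the median. The immediate early genes hold 5 blue points and a median of -0.10, and the glucocorticoid-responsive genes 3 red points and a median of 0.02.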

How the data were processed

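The deposited values are on the log2 scale and come from the authors' use of RMA (background correction, quantile normalization of the arrays and a summary over the probes of each probe set). The labels name RMA without a version. The table holds 31042 probe sets on 60 arrays, with log2 values from 3.75 to 14.1, and array medians lay between 7.11 and 7.18 in deltamethrin rats and between 7.08 and 7.19 in permethrin rats. Arrays have no read depth, so their number limits the precision. Samples were grouped by their titles.

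Platform annotation, with symbols checked against RefSeq, gave 1 symbol to 20826 probe sets, several to 436 and none to 9780. Each list counts a gene once, through its brightest probe set over all arrays. The difference was tested with limma 3.58.1 (R 4.3.3), in a fit of the group means of all 60 arrays, with moderated variances and p-values adjusted by Benjamini-Hochberg across the whole table, at 0.05. There was 1 pair of doses and so 1 comparison. Intervals are at 95%.

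The named genes were the 10 higher and 10 lower of lowest p, genes the study assayed by PCR and Crh, and the 3 members of lowest p in each list; not all are named, and others are said to be chosen after their values were seen. The members and the gene lists were chosen with earlier results of these data known. Alternatives changed the arrays in the fit, blocks and covariates, normalization, scale, variance prior, filter and probe set. The fit was tested on simulated data. Promoters were searched and figures drawn in Python 3.11.15 with pandas 2.3.3 and matplotlib 3.10.9.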

Additional observations from a re-analysis of the deposited data

Results flagged for a closer look

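Of 82 groups of 8 rats looked at, 4 held a rat whose gap to the nearest other, as a share of the range, exceeded the 95% critical value of Dixon. Chance gives such a gap in about 1 of 20 groups. Lrg1, a secreted glycoprotein of the acute-phase response, stood at 8.517 in permethrin replicate 3, against 6.94 to 7.64 in the other permethrin rats. Ttr stood at 11.35 in permethrin replicate 6, against 7.42 to 9.10 in the others. A second probe set of Gpatch4, with a difference of 0.24, stood at 7.368 in deltamethrin replicate 4, against 6.39 to 6.76 in the others. Ptgs1 stood at 5.387 in deltamethrin replicate 3, against 5.58 to 5.65 in the others.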

How the results depend on the processing

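The count at an adjusted p under 0.05 was 0 in every fit except 2 added after the data were seen, each with 1 (Cryab). The count at an unadjusted p under 0.05, 249 (69 higher and 180 lower), was 158 (103 lower) with the 16 arrays alone, 538 (218 higher, 320 lower) with the groups on the first component as a block and 676 (338 higher, 338 lower) with that component as covariate. It was 482 (314 higher) in the near and 2612 (1772 higher, 840 lower) in the far group on that component, where 2 deltamethrin rats met 2 permethrin rats, 63 (36 higher, 27 lower) with the dimmer probe sets left out and 1344 (705 higher, 639 lower) with array weights. Quantile normalization of the 16 arrays gave 107 lower. Added after the data were seen, the array set as a block gave 380 (119 higher), set A alone 106 (53 lower), set B alone 499 (266 higher), set and first component together 921 (490 higher, 431 lower), and the fit without far arrays 651 (448 higher). The cause of these shifts was not tested.

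Leaving out each of the 16 rats in turn gave 160 to 543 at an unadjusted p under 0.05, 59 to 115 higher and 98 to 438 lower, and 0 at an adjusted p. The total moved by over 1.5 times without permethrin replicate 1 (543), 4 (375) or 7 (160). The higher count did so without deltamethrin replicate 1 (105) or permethrin replicate 1 (105) or 2 (115), and the lower count without deltamethrin replicate 3 (119), 5 (282) or 7 (101) or permethrin replicate 1 (438), 4 (302), 7 (101) or 8 (98). Probe sets without overlap numbered 1 with arrays centred on their medians, and 0 to 2 without a rat.

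Of 27 probe sets at an unadjusted p under 0.05 that were followed through the alternatives, all 27 kept their direction without any 1 rat and 19 also stayed under 0.05. They included LOC102550510, which is not described above, and left out Grik1 and the probe set with no gene symbol described below. Since these were picked by their p in this same contrast, a kept direction was nearly fixed in advance and is a description only. In the far group Gpd1 was 0.03 (p = 0.852) and Cryab 0.06 (p = 0.678), Mt2A turned to -0.0021 and the second Gpatch4 probe set (0.24) to -0.0909. Whether the replicate numbers pair the rats was left unsettled. Deviations from the group means correlated above 0.1 in 5 of 8 pairs, from -0.585 to 0.72. The correlation was highest for the own number in 4 of 8. No chance level was computed, and the numbers also follow the array sets. With the replicate block, 0 passed an adjusted and 352 an unadjusted p of 0.05 (99 higher, 253 lower).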

Other observations

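None of 27 genes of neurite branching and guidance, 17 circadian clock genes, 17 genes of xenobiotic metabolism, 12 mitochondrial channels and carriers or 19 genes of the interleukin and acute-phase response was past an unadjusted p of 0.05 by its brightest probe set, and the list medians were -0.01, 0.00, -0.03, 0.01 and -0.01. The 95% interval lay within 0.5 of 0 for 25 of the branching, 12 of the clock, all 17 of the xenobiotic, all 12 of the mitochondrial and 16 of the interleukin genes, and the bounds of the clock genes reached -0.72 and 0.71. Of 13 calcium/calmodulin-dependent kinase genes none was past that threshold either (median 0.04, 11 with an interval within 0.5 of 0), and of 15 metallothioneins and metal transporters only Mt2A was, with Mt3, the brain metallothionein, at -0.02. Among all named genes 0.141% were higher and 0.485% lower at that threshold. Counted over all their probe sets, branching genes had 1 higher and 1 lower, and clock genes 1 lower. Among all probe sets 0.222% were higher and 0.58% lower.

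The lowest p of all belonged to a probe set with no gene symbol, with a mean of 8.70 in deltamethrin rats, 8.42 in permethrin rats and 8.63 in vehicle rats, a difference of 0.27 (SE 0.06, unadjusted p = 6.35e-05).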
